A study of Mus musculus with 9 samples.

Results

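Cycling CD4 single-positive (CD4 SP) thymocytes were the cells of the CD4 SP library with 5 or more unique molecular identifiers (UMIs, each 1 counted RNA molecule) summed over Mki67, Top2a, Cdk1, Birc5, Ube2c and Ccnb2. They numbered 210 of the 8602 CD4 SP cells that passed the filters and of 25223 cells in all 3 gates. A cell passed with 500 or more detected genes, at most 10% mitochondrial UMIs, and 1 hashtag (an antibody-borne barcode that marks the sample of origin) that reached 10 counts and 4 times the count of each other hashtag. The members were thus chosen by the UMIs of these 6 genes, whose levels describe the choice and support nothing further.

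The study set thymocytes of adult female mice that carry CD3ε I173A, a substitution in a signalling subunit of the T cell receptor (TCR), beside those of wild-type (WT) mice. Stained suspensions were sorted into CD4+CD8-, CD4-CD8+ and CD4+CD8+ (double-positive, DP) cells and read as 5′ single-cell RNA with TCR chains. Hashtag 6 marks I173A, with 57 cycling of 2664 CD4 SP cells, and hashtag 4 marks WT, with 69 of 3109. Hashtag 5, with 84 of 2829 cells, has no genotype in the labels, so its cells are described only. Each genotype was 1 sample per gate and the sources used here do not give the number of mice. There is therefore no replicate check and no test, all intervals are 95% intervals for counting error only, and the words higher and lower describe these samples.

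A dividing cell copies its DNA in S phase, when replication and histone genes are on, and then passes through G2 into mitosis (M), when spindle, condensin and cyclin B genes peak. CD4 SP thymocytes have passed positive selection as DP cells. They begin as semimature cells that express Ccr9, Cd69, Cd24a and Sox4, and end as mature cells that express Klf2, S1pr1 and Ccr7 before they leave the thymus. Division is best known in thymocytes that have passed β selection and are becoming DP cells, and some mature single-positive cells also divide before exit.

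Genes of the G2/M programme share promoter letters, shown here because the rule rests on them. The promoters of Cdk1 (the mitotic kinase), Ccnb2 (a B-type cyclin) and Birc5 (survivin, of the chromosomal passenger complex) follow, from 100 bases before to 50 after the annotated start, from RefSeq on GRCm38.p6. Capitals mark TTTGAA, the core of the cell cycle genes homology region, and CCAAT, on either strand, and these motifs do not overlap. Cdk1 lies on the minus strand (chr10:69352863-69353012), as does Ccnb2 (chr9:70421505-70421654), and Birc5 lies on the plus strand (chr11:117849137-117849286).
Cdk1: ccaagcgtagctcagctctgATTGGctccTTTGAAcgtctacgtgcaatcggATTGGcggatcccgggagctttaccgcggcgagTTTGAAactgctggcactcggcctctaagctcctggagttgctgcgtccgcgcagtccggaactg
Ccnb2: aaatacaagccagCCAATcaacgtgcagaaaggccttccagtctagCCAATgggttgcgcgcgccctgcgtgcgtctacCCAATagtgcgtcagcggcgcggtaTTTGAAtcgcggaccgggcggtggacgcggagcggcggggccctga
Birc5: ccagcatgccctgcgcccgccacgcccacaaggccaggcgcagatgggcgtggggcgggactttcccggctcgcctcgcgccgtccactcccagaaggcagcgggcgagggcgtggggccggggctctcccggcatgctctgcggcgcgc
The 300-base table windows of 5 of the 6 rule genes held TTTGAA, and 5 held CCAAT. Birc5 held neither. TTTGAA was found in 33 of 46 matched G2/M promoters (71.7%) and in 5 of 36 matched S phase promoters (13.9%), against 20.2% of 27025 genes, all over the same window. CCAAT was found in 71.7%, 61.1% and 41.1% of them. The E2F letters TTTGGCGC or TTTCCCGC showed the other pattern, in 2 of the 46 G2/M promoters (4.35%) and 12 of the 36 S phase promoters (33.3%), against 1.80% of all genes. A match describes letters in this window and is no binding site.

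The cycling cells held more UMIs than the other CD4 SP cells. Their median was 17938 UMIs in I173A, 16103.5 in hashtag 5 and 17133 in WT, against 5738, 6060 and 6029 UMIs in noncycling cells, a ratio of 3.13, 2.66 and 2.84. Median genes per cell were 4451, 4205 and 4222. Cycling cells were 2.14%, 2.97% and 2.22% of the cells and gave 6.00%, 7.22% and 5.77% of the UMIs. Levels below are therefore CPM (counts scaled to 1000000 UMIs), and shares of cells are given after thinning every cell to 3000 UMIs. A lower CPM in cycling cells is a smaller part of their UMIs and need not be fewer UMIs per cell.

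The 3 marker genes of the label are among the 6 genes of the rule, so their levels describe the members and are no check of them. Mki67, a chromosome surface protein of cycling cells, had a UMI in 96.2% of the 210 cells, Top2a, which untangles replicated DNA, in 93.8% and Birc5 in 82.4%. Mki67 was at 958 CPM in I173A, 1049 in hashtag 5 and 1047 in WT cycling cells, against 0.888 to 1.60 CPM in the 3 groups of noncycling cells. After thinning, 78.9%, 79.8% and 82.6% of cycling cells had an Mki67 UMI, against 0.164%, 0.318% and 0.567% of noncycling cells. The rule sum was clear of its threshold in most cells. It ran from 5 to 228 UMIs in I173A (median 51), from 5 to 291 in hashtag 5 (median 46) and from 5 to 225 in WT (median 80). At 5 UMIs stood 5 cells and just outside, at 4 UMIs, stood 12 cells, while 183 members had 10 or more and 7943 CD4 SP cells had none.

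**Figure D1:**
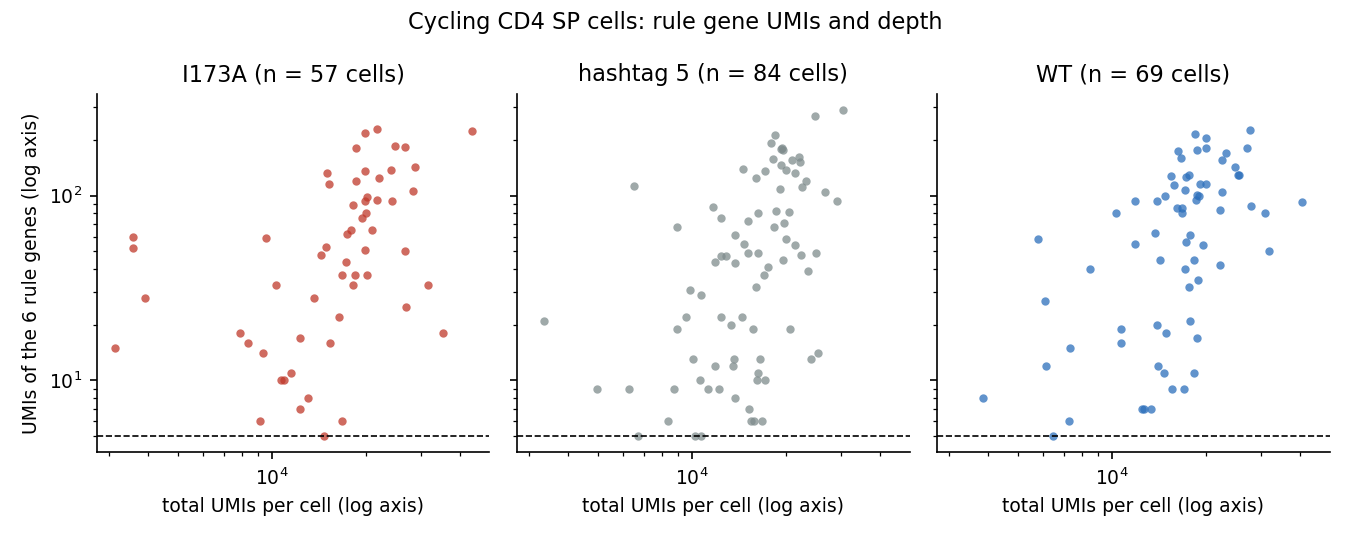
Summed UMIs of the 6 rule genes (vertical, log axis) against total UMIs (horizontal, log axis) for each cycling CD4 SP cell, in panels for I173A, hashtag 5 and WT; the dashed line is the threshold of 5. Most cells sit well above the line, and the medians are 51, 46 and 80 UMIs.

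The cycling share of the CD4 SP gate differed between I173A and WT by less than counting error, and the gap was wider in the other gates. The share was 2.14% in I173A (interval 1.62% to 2.76%), 2.97% in hashtag 5 (2.38% to 3.66%) and 2.22% in WT (1.73% to 2.80%). The ratio of I173A to WT was 0.964 (0.667 to 1.39), an interval that leaves room for a difference in either direction. In the CD8 SP gate the same 6 genes gave 9.16% cycling cells in I173A and 17.0% in WT, a ratio of 0.538 (0.462 to 0.625). In the DP gate they gave 5.06% and 15.8%, a ratio of 0.321 (0.262 to 0.391). The CD4 SP interval lies above both of the others, but the gates hold unlike cycling cells. At least 10 UMIs of DP stage genes (Rag1, Rag2, Dntt, Ptcra and others) were found in 62 of 263 I173A cycling CD8 SP cells. The same was found in 292 of 514 WT cycling CD8 SP cells, against 2 of 57 and 2 of 69 in the CD4 SP gate. The part of such cells in the ratios of the gates was not tested. Of 410 CD4 SP barcodes without a single hashtag, 21 (5.12%) had 5 or more rule UMIs, with a median of 22314 UMIs, and 19 of them carried 2 hashtags; they are not among the members. The CD4 SP library shared 124 barcodes with the CD8 SP and 109 with the DP library, none of them of a member.

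The rule rests on G2/M genes and left out some cells with a high rate of S phase UMIs. Noncycling CD4 SP cells with S phase UMIs at or above the lower quartile of the members, 43.6 per 10000 UMIs, numbered 18 of 2607 in I173A (0.690%, 0.410% to 1.09%). They numbered 44 of 2745 in hashtag 5 (1.60%, 1.17% to 2.15%) and 52 of 3040 in WT (1.71%, 1.28% to 2.24%). The ratio of I173A to WT was 0.404 (0.222 to 0.701), an interval below 1, whereas that of the members includes 1. None of them had 10 or more UMIs of the DP stage list. This limit on S phase UMIs was chosen after the data were seen. It is a rate with no lowest count, so a few S phase UMIs are enough in a shallow cell. Noncycling cells ran down to 656 UMIs in I173A, 667 in hashtag 5 and 751 in WT. The part of depth in these numbers was not tested.

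The members held RNA of both S phase and G2/M. Every measured gene of the S phase list (43 of 43) and of the histone families (46 of 46), and 53 of 54 of the G2/M list, was at least 1.5-fold higher in cycling than noncycling cells in each of the 3 hashtags. Over all genes, 11.2% of the 5855 tested were that much higher and 8.88% that much lower. The rule used the same cells, so these counts are a description. Ska1, which ties chromosomes to spindle microtubules, stood at 60.7 CPM in I173A, 78.3 in hashtag 5 and 82.7 in WT cycling cells, against 0.127, 0.115 and 0.0517 CPM in noncycling cells. Nusap1, which bundles spindle microtubules, was at 324, 319 and 380.4 CPM against 0.381, 0.230 and 0.413. Rrm2, the regulated subunit of ribonucleotide reductase, was at 541, 517 and 599.7 CPM against 1.84, 1.73 and 1.24. Of the other cell cycle regulators, 17 of 23 measured were higher by that fold. Cdkn1b, an inhibitor of cyclin-dependent kinases, was lower, at 86.5, 81.3 and 81.8 CPM in cycling against 138, 132 and 124 CPM in noncycling cells.

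Position in the cycle was read from the share of S phase UMIs among S phase and G2/M UMIs together. Its median was 48.5% in I173A, 45.4% in hashtag 5 and 44.8% in WT. A share of 60% or more was found in 58 cells (16, 23 and 19 by group), which had a median of 13 rule UMIs and 14.2 histone UMIs per 10000. A share over 20% and under 60% was found in 92 cells (25, 33 and 34), with medians of 76 rule UMIs and 272 histone UMIs per 10000. The remaining 60 cells (16, 28 and 16), at 20% or less, had medians of 133 and 44.5. Histone RNA was therefore high between the ends of the range, and each group had cells in all 3 ranges. The cell highest in S phase UMIs per 10000 UMIs, an I173A cell, is one of the DP stage cells described next.

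**Figure D2:**
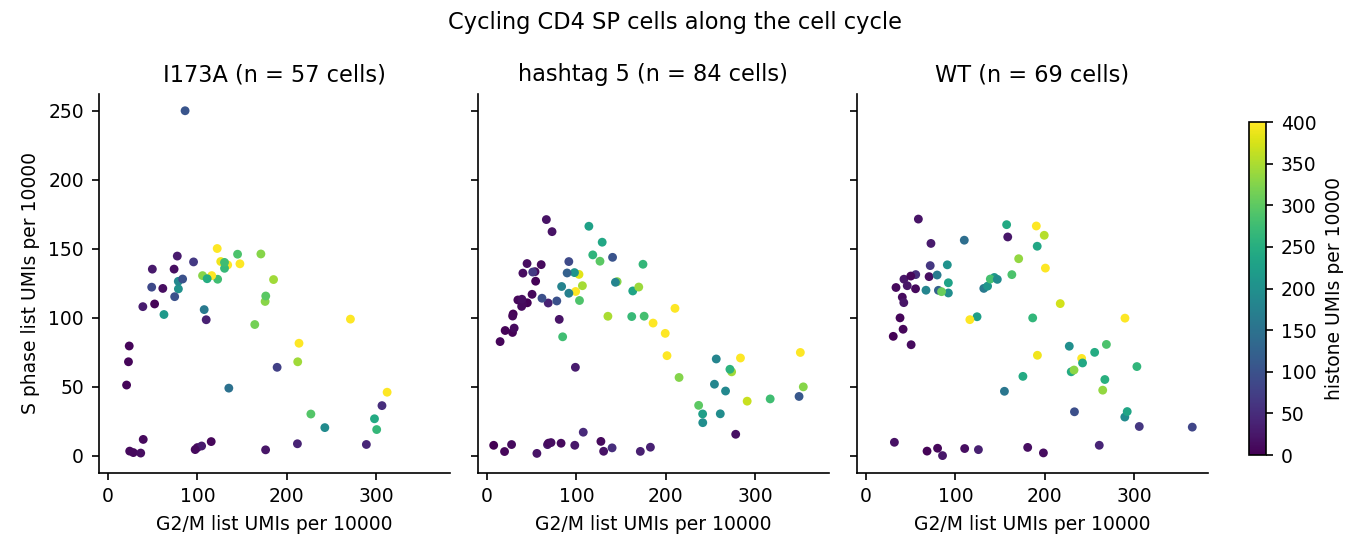
S phase list UMIs per 10000 (vertical) against G2/M list UMIs per 10000 (horizontal) for each cycling CD4 SP cell, in panels for I173A, hashtag 5 and WT, coloured by histone UMIs per 10000 (values of 400 and over share the top colour). The cells form an arc in each group, with high histone RNA between its ends and a band of cells with few S phase UMIs along the base.

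A few members were not CD4 SP cells by their RNA. DP stage genes (Rag1, Rag2, Dntt, Ptcra and others) summed to 27 to 45 UMIs in 5 cells, 2 of I173A, 1 of hashtag 5 and 2 of WT, and to at most 5 UMIs in the other 205. All 5 had 1 productive TCRβ chain and no TCRα chain, whereas 195 of the 205 others (95.1%) had an α chain. These 5 cells also held 106 of the 190 Cd8b1 UMIs of all members and 21 of the 24 Cd8a UMIs. Both are chains of the CD8 co-receptor, on which the gate was sorted. TCR chains were not used by the rule, so the missing α chain is a separate readout of the same 5 cells. Markers of other lineages were uneven. The DP stage list summed to 120.3 CPM in I173A, 65.8 in hashtag 5 and 86.0 in WT cycling cells, with all 9 genes detected. Of the 13 genes of the CD8 lineage list, 11, 10 and 11 were detected, at 254, 171 and 240 CPM in sum, with the cytotoxic chemokine gene Xcl1 at 0 in each group. The macrophage and dendritic cell list was at 154, 106 and 129 CPM, with Lyz2, C1qa, C1qb, Itgax, Csf1r and Siglech at 0. Cd74 of that list had a UMI, before thinning, in 19.3%, 15.5% and 11.6% of cycling cells, against 11.1%, 13.4% and 12.9% of noncycling cells. The B cell list was at 38.8, 17.7 and 63.3 CPM, with Ms4a1 and Pax5 at 0, and all 5 erythroid genes were at 0. The γδ T cell list was at 16.9, 36.2 and 1.69 CPM, and 1 hashtag 5 cell held 46.9% of that group's UMIs. The part of these cells in the differences below was not tested, except where a value without them is given.

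TCR chains showed a diverse set of ordinary αβ cells. A productive α and β chain was found in 194 of 210 cycling cells (92.4%, 87.9% to 95.6%), by group in 50 of 57, 81 of 84 and 63 of 69. Only 1 cell shared both chains with any other CD4 SP cell. That WT pair (TRAV9-4 and TRAJ31 with TRBV15 and TRBJ1-1) joined a member with 8 rule UMIs to a cell with 4, just outside the rule. A second productive β chain was found in 17 cells (8.10%, 4.79% to 12.6%), against 4.96% of noncycling cells. Doublets of 1 hashtag and single cells with 2 β chains cannot be told apart here, so results that such cells carry are given without them too.

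The invariant α chain of natural killer T (NKT) cells, TRAV11 joined to TRAJ18, was carried by 7 cycling cells (3.33%, 1.35% to 6.75%), 4 of I173A, 2 of hashtag 5 and 1 of WT. Of noncycling CD4 SP cells, 110 carried it (1.31%, 1.08% to 1.58%). The 7 cells used 3 CDR3α sequences of 45 bases, printed because they are different rearrangements that give the same receptor chain. They differ at 1 base, in capitals, the third base of a glycine codon, and so encode the same protein.
CDR3α in 1 member: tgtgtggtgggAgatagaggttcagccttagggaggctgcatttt
CDR3α in 3 members: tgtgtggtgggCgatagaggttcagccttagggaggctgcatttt
CDR3α in 3 members: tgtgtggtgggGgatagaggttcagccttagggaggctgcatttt
Of the 117 TRAV11-TRAJ18 chains in the gate, with 9 distinct CDR3α sequences, these accounted for 18, 51 and 29. All 7 cells had 1 or more UMIs of Zbtb16, the transcription factor of NKT cells, up to 23 in the WT cell, and 23593 to 43675 UMIs in all. Their β chains were TRBV1 in 3 cells and TRBV13-2, listed jointly with TRBV12-2, in 3. The 4 I173A cells held 26751, 31697, 35381 and 43675 of the 1005441 UMIs of I173A cycling cells, and the WT cell 31782 of 1185660. The TRAV11-TRAJ18 cells thus weigh more in the I173A sums than in the WT sums. Their part in the ratios of I173A to WT was not tested, except where a value without them is given. Zbtb16 had a UMI in 8 of the 210 members. A WT cell of 40731 UMIs without a TRAV11-TRAJ18 chain held 13 Zbtb16 UMIs and 72 UMIs of NKT and innate-like genes. Values given without TRAV11-TRAJ18 cells still include this WT cell, so they do not leave out innate-like cells of both genotypes alike. The list of NKT and innate-like genes, which other T cells also express in part, summed to 222 CPM in I173A, 172 in hashtag 5 and 203 in WT cycling cells, with 8, 8 and 7 of 9 genes detected. Foxp3, the defining factor of regulatory T cells, had 1 UMI in I173A, 2 in hashtag 5 and 1 in WT cycling cells. Cells with a Foxp3 UMI, before thinning, were 1.75%, 2.38% and 1.45% of cycling cells, against 1.69%, 2.66% and 1.94% of noncycling cells. The regulatory T cell list, several of whose genes TCR signals also induce, summed to 723, 650.4 and 702 CPM in cycling cells, against 1055, 987 and 819 CPM in noncycling cells, with 12, 14 and 14 of 14 genes detected in cycling cells.

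Semimature genes were lower in the cycling cells, over all members, than in the rest of the CD4 SP gate. All 9 measured semimature genes were at least 1.5-fold lower in cycling than noncycling cells in each hashtag, beside 8.88% of all genes. The median log2 ratio of the list was -1.56 in I173A, -1.28 in hashtag 5 and -1.16 in WT, where the median over all genes was -0.15, -0.10 and -0.12. Ccr9, a chemokine receptor of early thymocytes (chromosome 9, 123767211 to 123783457), was at 64.6, 40.6 and 45.5 CPM in cycling cells, against 301, 259.8 and 234 CPM in noncycling cells. Thinned to 3000 UMIs, 10.5%, 9.52% and 7.25% of cycling cells had a Ccr9 UMI, against 34.6%, 32.8% and 29.3% of noncycling cells. Sox4, a transcription factor of immature thymocytes, was at 78.6, 70.9 and 63.3 CPM against 266, 275 and 260.4. Satb1, a chromatin organiser of thymocytes, was at 634, 684 and 692 CPM against 1597, 1555 and 1551. For each of these 3 genes every cycling value lay below every noncycling value.

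Maturation genes had a lower median as a list too, with Klf2 and H2-Q7 among the exceptions. The median log2 ratio of cycling over noncycling cells was -0.51 in I173A, -0.35 in hashtag 5 and -0.42 in WT. Of 17 measured genes 4, 6 and 5 were higher, beside 39.0%, 41.5% and 41.1% of all genes. Klf2, the factor that switches on exit genes, was higher in cycling cells, at 765 CPM in I173A, 808 in hashtag 5 and 818 in WT, against 604, 554 and 630.0 CPM in noncycling cells. After thinning, 78.9%, 78.6% and 84.1% of cycling cells had a Klf2 UMI, against 55.5%, 53.5% and 58.7%. H2-Q7, a class I gene of mature cells, was at 132, 204 and 239 CPM against 92.2, 123 and 132. Ccr7, the chemokine receptor of mature cells, was close to level, at 556, 596 and 735 CPM against 693, 594 and 694. Of 17 measured genes of the list, 5 were at least 1.5-fold lower in each hashtag, namely Gimap3, Gimap4, Gimap6, Tcf7 and Bcl2, and none was higher by that fold in all 3. S1pr1, the exit receptor, had a UMI after thinning in 28.1%, 23.8% and 23.2% of cycling cells, against 27.9%, 27.6% and 30.9% of noncycling cells. Gimap6, a GTPase of resting lymphocytes, was at 198, 248 and 248 CPM against 640.4, 614 and 692, and Tcf7, a factor of naive T cells, at 316, 281 and 287 CPM against 609, 518 and 585. All 4 CD4 lineage genes were also lower in CPM by that fold. Their UMIs per cell were not lower, with medians in sum of 7, 6 and 5 in the deeper cycling cells against 4, 4 and 4 in noncycling cells. Cd4 was at 212, 234 and 221 CPM against 406, 377 and 381, and Zbtb7b, the CD4 lineage factor, at 45.8, 63.6 and 55.7 CPM against 100.4, 105 and 111.

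**Figure D3:**
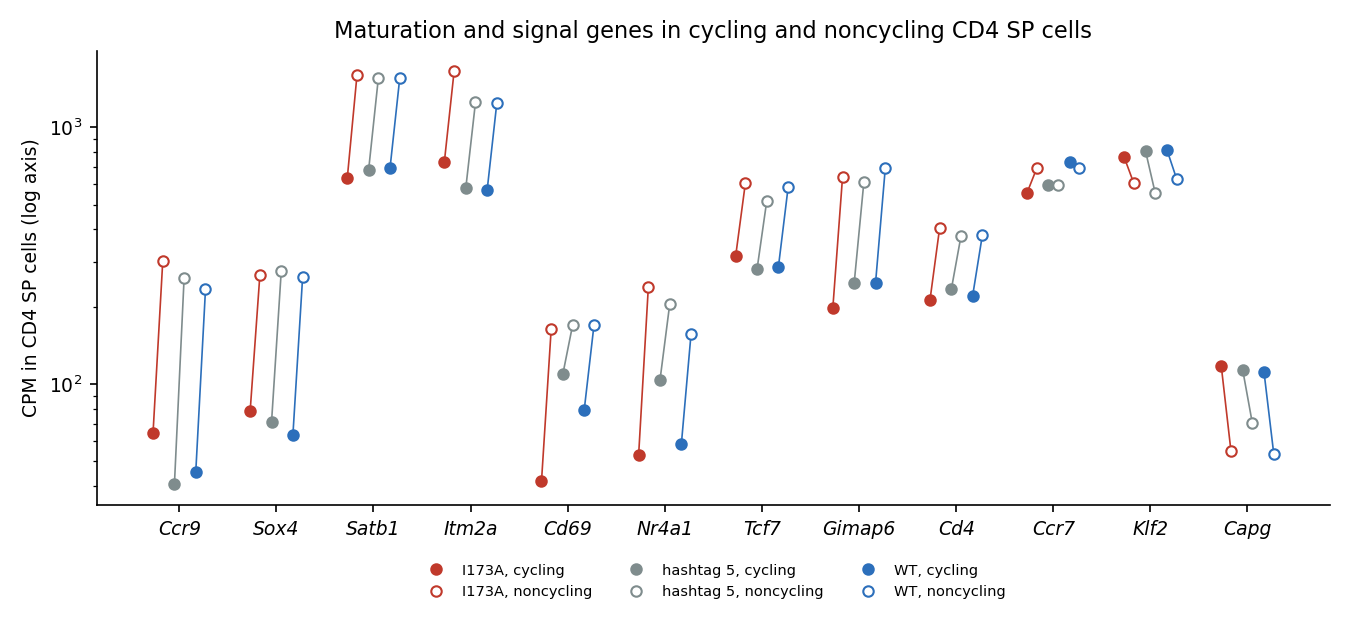
CPM (log axis) of 12 genes in cycling (filled) and noncycling (open) CD4 SP cells of I173A, hashtag 5 and WT, joined within each group. Ccr9, Sox4, Satb1, Itm2a, Cd69, Nr4a1, Tcf7, Gimap6 and Cd4 are lower in cycling cells of every group, Klf2 and Capg are higher, and Ccr7 is close to level.

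Genes induced by TCR signals had lower CPM in cycling cells in many cases. Of 21 measured, 11 were at least 1.5-fold lower in each hashtag, beside 8.88% of all genes, and none was higher by that fold, beside 11.2%. Nr4a1, an early response factor, was at 52.7 CPM in I173A, 103 in hashtag 5 and 58.2 in WT cycling cells, against 238, 204 and 157 CPM in noncycling cells. After thinning, 3.51%, 13.1% and 8.70% of cycling cells had an Nr4a1 UMI, against 13.9%, 12.9% and 10.9% of noncycling cells. For hashtag 5 the thinned shares were not lower in cycling cells, with Cd69 in 31.0% of cycling against 25.7% of noncycling cells and Egr1 in 21 of 84 cells against 556 of 2518. Bcl2l11, which encodes the death protein Bim, was at 14.9, 10.3 and 12.7 CPM against 65.5, 47.6 and 49.1. Id3 and Pdcd1 went the other way. Id3, an inhibitor of E proteins, was at 478, 551 and 484 CPM against 337, 373 and 358, and Pdcd1, an inhibitory receptor, at 59.7, 37.0 and 40.5 CPM against 29.6, 24.9 and 18.1. Among the 12 genes lowest in cycling cells by the naming rule were Slfn5 (3.98, 17.0 and 3.37 CPM against 104, 127 and 98.7), Tcp11l2 (9.95, 7.39 and 7.59 against 98.3, 93.6 and 81.3) and Kdm5b, a histone demethylase (29.8, 21.4 and 18.6 against 209, 192 and 176). The other 9 were Cd8a, Ccr9, Sox4, Bcl2l11, Arhgap20, F13a1, Kdm7a, Dlgap4 and L3mbtl3.

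Metabolic genes passed 1.5-fold about as often as genes at large. Of 16 measured Myc and nucleolar genes, 1 was that much higher in each hashtag, and of 13 glycolysis genes 2 were, beside 11.2% of all genes. Tpi1, a glycolytic isomerase, was at 130.3 CPM in I173A, 105 in hashtag 5 and 119.8 in WT cycling cells against 35.1, 40.4 and 40.9 in noncycling cells, and Gapdh at 2789.8, 2422 and 2486 CPM against 1472, 1479.8 and 1499. Aldoa, another glycolytic enzyme, went the other way, at 175, 111 and 121 CPM against 333, 356 and 364. None of the 9 measured cholesterol synthesis genes passed that fold in all groups in either direction. Myc itself was at 98.5, 101 and 86.9 CPM against 108, 112 and 135.

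Cycling cells of the CD4 SP gate differed in kind from cycling cells of the CD8 SP gate. At least 10 UMIs of DP stage genes were found in 3.51% of I173A, 1.19% of hashtag 5 and 2.90% of WT cycling CD4 SP cells. In the CD8 SP gate the shares were 23.6%, 52.1% and 56.8%, and in the DP gate 94.2%, 95.6% and 95.5%. Dntt, the terminal transferase of rearranging thymocytes, was at 33.8, 15.5 and 28.7 CPM in cycling CD4 SP cells, 279, 546 and 550.3 in cycling CD8 SP cells and 1157, 1203 and 1119 in cycling DP cells. Klf2 ran the other way, at 765, 808 and 818 CPM in cycling CD4 SP cells, beside 585, 278 and 268 in cycling CD8 SP cells and 10.5, 19.2 and 11.4 in cycling DP cells. Cd5, a surface receptor that tracks the strength of TCR signals, had 456, 551 and 473 CPM there, beside 157, 98.0 and 85.8 CPM in the CD8 SP gate and 115, 107 and 104 CPM in the DP gate. Zbtb7b had 46, 86 and 66 UMIs in cycling CD4 SP cells and at most 3 in any group of the other 2 gates. Within the CD8 SP gate, I173A stood nearer the CD4 SP values than hashtag 5 and WT did for Klf2, Ccr7, S1pr1 and Dntt. I173A also had the lowest share of cells with 10 or more DP stage UMIs in that gate. Cycling CD8 SP cells with no DP stage UMI (146, 148 and 157 by group) were not compared apart. The part of DP stage cells in these values was therefore not tested. Within the CD4 SP gate the intervals of I173A and WT overlapped for Klf2 and Dntt, and did not for Ccr7 and S1pr1, which were lower in I173A.

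**Figure D4:**
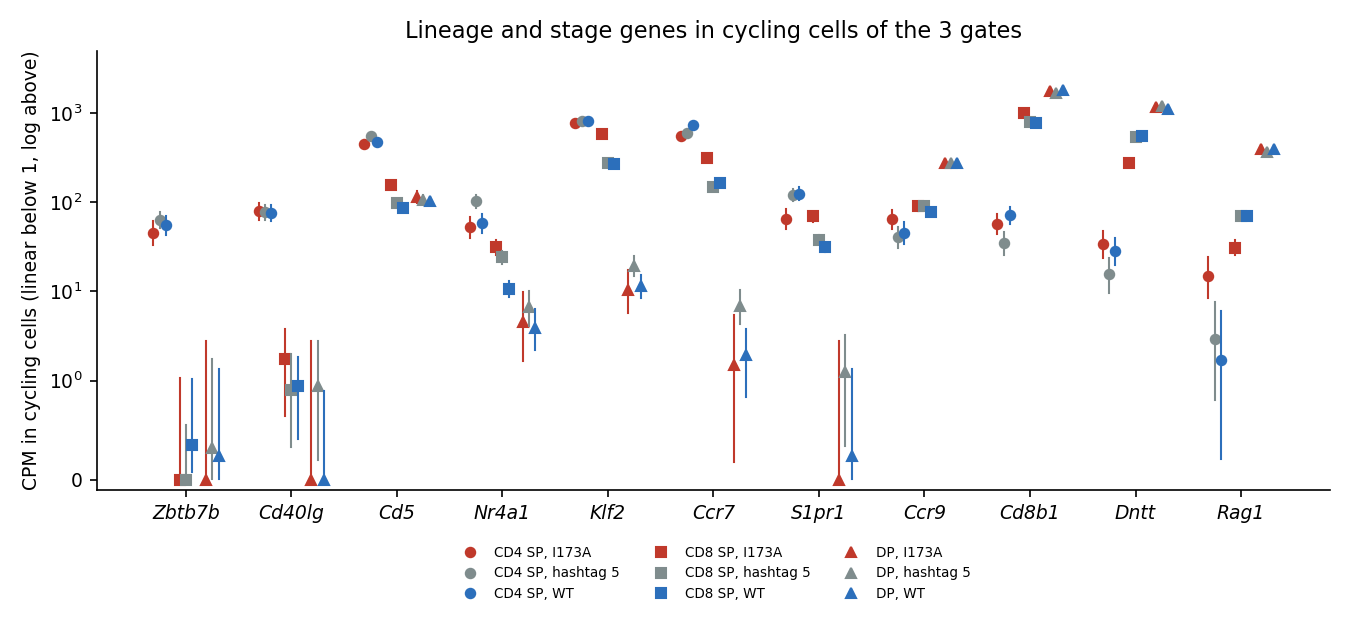
CPM in cycling cells (linear below 1, log above) of 11 lineage and stage genes, with 95% counting intervals, for I173A, hashtag 5 and WT in the CD4 SP (circles), CD8 SP (squares) and DP (triangles) gates. Zbtb7b and Cd40lg are near 0 outside CD4 SP, while Dntt and Rag1 are lowest in CD4 SP and highest in DP in each group.

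The comparison of I173A with WT addressed whether cycling cells carry the expression differences of the whole gate. Cycling cells gave 1005441 UMIs in I173A and 1185660 in WT, and far more genes passed 1.5-fold in them than in noncycling cells, with 15761003 and 19349030 UMIs. Of 5890 genes tested in cycling cells, 4.07% were that much higher and 3.38% that much lower, against 0.248% and 0.0991% of 6054 in noncycling cells. A count near these shares is no result about a list.

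Large differences of noncycling cells stood in cycling cells too, with intervals that overlap. Cpt1a, the gate enzyme of fatty acid oxidation in mitochondria (chromosome 19, 3322326 to 3385735), was at 40.8 CPM in I173A, 8.87 in hashtag 5 and 9.28 in WT cycling cells. The ratio of I173A to WT was 4.40 (2.22 to 9.48) in cycling and 4.61 (3.88 to 5.50) in noncycling cells. It had a UMI in 23 of 57, 10 of 84 and 9 of 69 cells, and after thinning in 10.5% (3.96% to 21.5%), 1.19% and 2.90% (0.353% to 10.1%). Tsc22d3, a glucocorticoid-induced gene that encodes GILZ (chromosome X, 140539528 to 140600522), was at 119, 77.6 and 41.3 CPM, with a ratio of 2.89 (2.06 to 4.11) in cycling and 2.25 (2.12 to 2.39) in noncycling cells. Ddit4, an inhibitor of the growth kinase complex mTORC1 (chromosome 10, 59949675 to 59951770), was at 342, 202 and 163 CPM, with ratios of 2.10 (1.76 to 2.52) and 2.15 (2.06 to 2.25). Jun, a factor of the immediate early response (chromosome 4, 95049036 to 95052222), was lower, at 14.9, 35.5 and 40.5 CPM, with ratios of 0.369 (0.192 to 0.669) and 0.366 (0.317 to 0.422). The ratio of the 2 ratios was 0.953 (0.480 to 1.89) for Cpt1a and 1.01 (0.554 to 1.83) for Jun. Hashtag 5 lay near WT for Cpt1a and Jun and between the genotypes for Tsc22d3 and Ddit4.

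**Figure D5:**
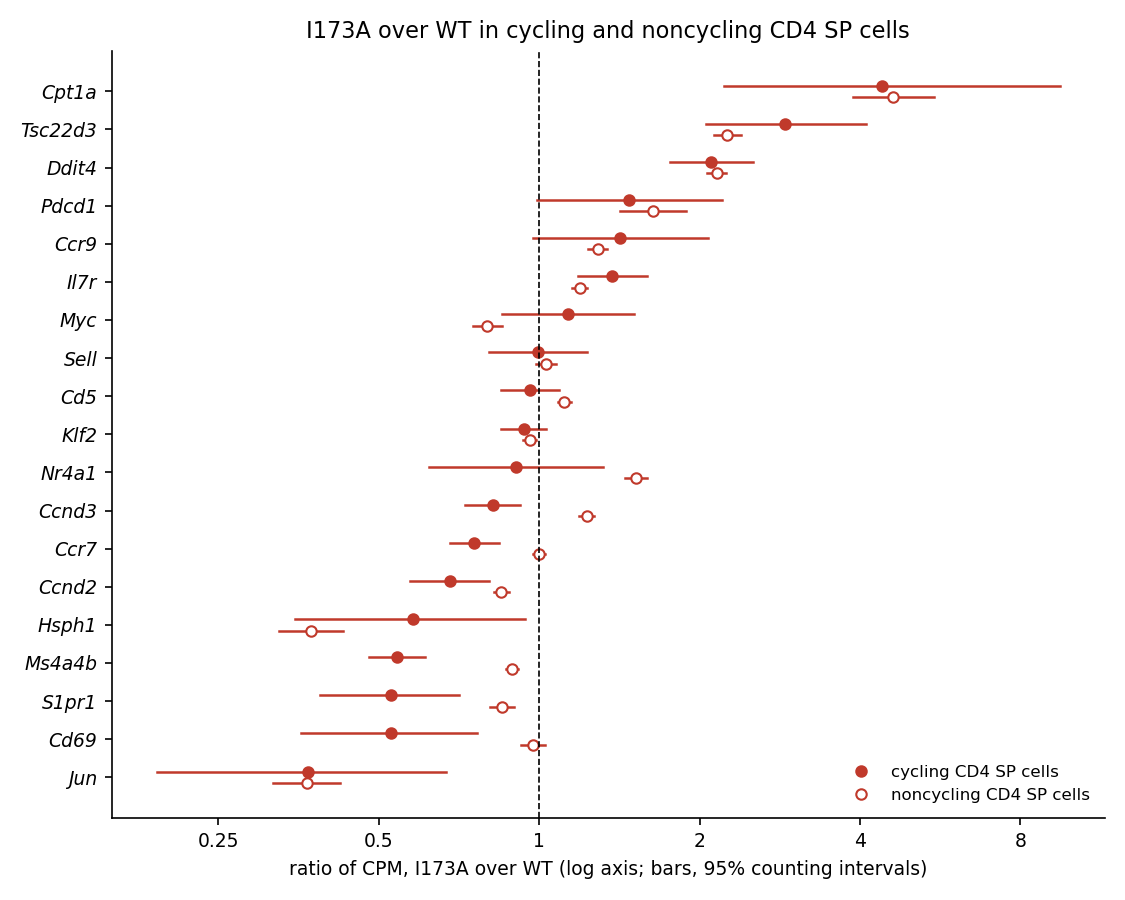
Ratio of CPM in I173A over WT (log axis) with 95% counting intervals for 19 genes in cycling (filled) and noncycling (open) CD4 SP cells; the dashed line is a ratio of 1. Cpt1a, Tsc22d3, Ddit4 and Jun have like ratios in both kinds of cell, whereas the points of Nr4a1, Ccnd3, Ccr7, S1pr1 and Cd69 are lower in cycling cells.

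Fatty acid oxidation genes beyond Cpt1a showed small differences. In cycling cells 9 of 13 measured genes of the list, Cpt1a included, were higher in I173A (median log2 ratio 0.24). In noncycling cells 14 of 15 were, again with Cpt1a, and the median was 0.16. Of all genes, 49.9% were higher in cycling and 62.6% in noncycling cells. Hadha, which takes part in the oxidation spiral, was at 97.5 CPM in I173A and 71.7 in WT cycling cells. Only Cpt1a passed 1.5-fold. Of 8 measured glucocorticoid and FoxO response genes 5 were higher, with a median of 0.27. Tsc22d3 and Ddit4 were among the 3 that passed 1.5-fold, beside 4.07% of all genes. Fatty acid synthesis genes had a median of 0.10 and cholesterol genes one of -0.15, both near the median of all genes (0.00). Heat shock and immediate early genes were lower in I173A in 13 of 14 cases, with a median of -0.38, against -0.21 in noncycling cells. Of them, 3 passed 1.5-fold, beside 3.38% of all genes. Hspa8, the constitutive Hsp70, was at 1576 CPM in I173A, 2078 in hashtag 5 and 2304 in WT cycling cells, a ratio of 0.684 (0.643 to 0.728), and Hsph1, a co-chaperone, at 25.9, 44.3 and 44.7 CPM, which gave a ratio of 0.578 (0.347 to 0.942).

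TCR response genes had a median ratio near that of all genes in cycling cells, and a higher one in noncycling cells; whether the lists differ between the 2 kinds of cell was not tested. In cycling cells 8 of 18 measured were higher (median log2 ratio -0.04), against 17 of 24 and 0.18 in noncycling cells. Over all genes 49.9% were higher in cycling and 62.6% in noncycling cells. The semimature share of a cell is its semimature UMIs as a share of its semimature and maturation UMIs together. In noncycling cells whose semimature share lay in the interquartile range of the members, 11 of 21 TCR response genes were higher, with a median of 0.06. Nr4a1 (chromosome 15, 101253902 to 101274795) had a ratio of 0.906 (0.621 to 1.31) in cycling and 1.52 (1.45 to 1.59) in noncycling cells, and the ratio of these was 0.596 (0.416 to 0.856). It was found in 5 of 57 I173A, 18 of 84 hashtag 5 and 10 of 69 WT cycling cells, and 1 cell held 45.3% of the I173A UMIs. Without cells with 2 β chains the ratio was 0.429. Among those noncycling cells of like semimature share (837 of I173A and 1057 of WT) the Nr4a1 ratio was 1.08 (0.956 to 1.22), and the ratio of ratios was 0.838 (0.575 to 1.22). The semimature list includes Cd69, so cells chosen by this share were not chosen by maturity alone. The part of maturity in the Nr4a1 difference was not tested. Cd69, an early activation marker that holds cells in the thymus, was at 41.8, 109 and 79.3 CPM, which gave a ratio of 0.527 (0.357 to 0.766), and 1 cell held 47.6% of its I173A UMIs. The ratio was 0.321 without the highest cell of each genotype and 0.228 without cells with 2 β chains. Among the noncycling cells of like semimature share the Cd69 ratio was 0.691 (0.613 to 0.779), also below 1. The ratio of the cycling ratio to this one was 0.762 (0.520 to 1.12), an interval that includes 1. Cd5 was at 456, 551 and 473 CPM, which gave a ratio of 0.963 (0.849 to 1.09), and Pdcd1 had a ratio of 1.47 (0.992 to 2.20) beside 1.63 (1.42 to 1.88) in noncycling cells.

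Maturation and egress genes were lower in I173A cycling cells. Of 17 measured, 14 were lower (median log2 ratio -0.23), against -0.06 in noncycling cells. Of all genes, 49.9% were higher in I173A cycling cells. S1pr1, the receptor that guides exit from the thymus (chromosome 3, 115710433 to 115715055), was at 65.6 CPM in I173A, 120.5 in hashtag 5 and 125 in WT cycling cells. Its ratio was 0.526 (0.387 to 0.707), beside 0.852 (0.808 to 0.898) in noncycling cells and 0.932 (0.868 to 1.00) in those of like semimature share. Shares of cells with an S1pr1 UMI differed in direction with depth. Before thinning they were 45.6% of I173A and 52.2% of WT cycling cells. After thinning they were 28.1% (17.0% to 41.5%) and 23.2% (13.9% to 34.9%), intervals that overlap. Ms4a4b, a membrane protein of mature T cells, was at 391.9, 747 and 724 CPM, which gave a ratio of 0.541 (0.479 to 0.610), and H2-Q7 at 132, 204 and 239, which gave a ratio of 0.554 (0.448 to 0.683). Ccr7 was at 556, 596 and 735 CPM, which gave a ratio of 0.756 (0.679 to 0.842) beside 0.998 (0.973 to 1.02). Klf2 differed less, with a ratio of 0.935 (0.849 to 1.03). Il7r, the interleukin-7 receptor, was higher, at 389, 296 and 283 CPM, which gave a ratio of 1.37 (1.18 to 1.59). The 3 genes past 1.5-fold among 17 stand beside 3.38% of all genes. The members' semimature share had a median of 13.7% in I173A, 11.2% in hashtag 5 and 13.3% in WT, with upper quartiles of 24.7%, 17.8% and 18.1%. Maturation and egress UMIs enter this share, so it is no separate readout of these genes. Its part in them was not tested.

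The cell cycle genes themselves differed little. In I173A, 48 of 58 G2/M genes were lower (median log2 ratio -0.22), and 24 of 46 S phase genes were higher (median 0.00). Of all genes tested in cycling cells, 49.9% were higher. Ube2c, which loads ubiquitin for the exit from mitosis, had a ratio of 0.734 (0.664 to 0.811), while Mki67 had 0.915 (0.840 to 0.996), which turned to 1.21 when every cell weighed the same. Some members were shallow. I173A cells of 3134, 3589, 3594 and 3921 UMIs held 1, 41, 33 and 20 Mki67 UMIs, with 6.54%, 7.36%, 4.48% and 5.38% mitochondrial UMIs. The shallowest WT member, of 3858 UMIs, held 2, with 1.24%. The part of such cells in the value of 1.21 was not tested. Histone genes had a median of 0.20 and 10 of 52 passed 1.5-fold, beside 4.07% of all genes, but a few cells carried the largest. Hist1h3h, Hist1h3a and Hist1h3e stood at 243, 273 and 564 CPM in I173A against 86.0, 134 and 288 in WT. The highest I173A cell for each gene held 54.9%, 46.4% and 29.6% of the I173A UMIs, and without the highest cell of each genotype the ratio of Hist1h3a was 1.17 in place of 2.03. Histone genes have near-identical copies, so the counter may have split their reads unevenly. The D cyclins, which drive entry into the cycle, were lower in I173A cycling cells. Ccnd2 was at 219, 369.5 and 322 CPM, which gave a ratio of 0.679 (0.573 to 0.804) beside 0.849 (0.822 to 0.876) in noncycling cells. Ccnd3 (chromosome 17, 47505051 to 47599689) was at 461, 492 and 564 CPM, which gave a ratio of 0.818 (0.725 to 0.922) beside 1.23 (1.19 to 1.27). The lower Ccnd3 rested in part on few cells. Without TRAV11-TRAJ18 and DP stage cells its cycling ratio rose above the upper end of that interval, to the value given in the closing sections.

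Among other named genes, several of the highest rested on few cells. Ly6d, a surface protein, had 81 UMIs in I173A, 10 in hashtag 5 and 9 in WT, and 4 I173A cells held all of them, 1 of them 50.6%. Bcl2a1d, an anti-apoptotic gene with close paralogs, had a ratio of 3.81 (2.33 to 6.45), and of 1.80 without TRAV11-TRAJ18 and DP stage cells. Lmo4, a LIM-domain cofactor, had a ratio of 2.45 (1.75 to 3.45), which turned to 0.819 without those cells. Ipcef1, Dnaaf2, Ccs and Cmtm7 were spread over more cells, with a UMI in 32, 33, 35 and 45 of 57 I173A cells against 20, 26, 19 and 41 of 69 WT cells, and ratios of 2.47, 2.20, 2.18 and 1.95. Lgals3, which encodes galectin-3, was the lowest, at 41.8, 62.8 and 136 CPM, which gave a ratio of 0.308 (0.214 to 0.434), with UMIs in 12, 12 and 8 cells. Bcl3, Zfpm1, Amigo2, Mtif2, Ccdc69, Rbm27, Nefh, Clic4 and C2cd5 had ratios of 0.365 to 0.526. Zfpm1, a cofactor of GATA factors, had a UMI in 18 of 57 I173A, 39 of 84 hashtag 5 and 42 of 69 WT cells.

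Hashtag 5 stood apart from both genotypes in interferon genes. All 18 measured genes of that list were higher in hashtag 5 than in WT cycling cells (median log2 ratio 0.61), and 9 passed 1.5-fold, beside 3.46% of all genes. In noncycling cells all 18 were also higher, with a median of 0.24, and 2 passed, beside 0.149%. Isg15, a ubiquitin-like protein of the interferon response, was at 156 CPM in I173A, 399.8 in hashtag 5 and 242 in WT cycling cells, against 219, 368 and 266 CPM in noncycling cells. Ifit1, an interferon-induced RNA-binding protein, was at 34.8, 70.9 and 39.6 CPM against 106, 166 and 128. In I173A, 7 of 17 were higher than in WT cycling cells, with a median of -0.18.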

How the data were processed

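The authors deposited raw counts of UMIs per gene and barcode, with hashtag counts, made with Cell Ranger 6.0.1 on GRCm38, per the submitters' processing notes; per the file headers, the matrices name version 3.1.0 of the software. TCR contigs carry deposited UMI counts. From these, cells were filtered and given a hashtag as stated above. UMIs were summed over the cells of a group and scaled to CPM, with exact Clopper-Pearson and conditional Poisson 95% intervals (Python 3.11.15, NumPy 2.4.6, SciPy 1.17.1, pandas 2.3.3), whose interval code was tested on simulated data. A gene entered a list or a count with a mean of 20 CPM over both groups. The members, their rule and the lists were chosen with earlier results of these data known. The text names the 12 genes highest and the 12 lowest by ratio (I173A over WT: 50 or more UMIs in 1 genotype; cycling over noncycling: 100 or more), up to 4 list members at each end, and fixed genes of the cycle, lineage, signal and maturation. Other genes are named with their values. Doublets of 1 hashtag remain; no caller was run. Gene coordinates are RefSeq's on GRCm38.p6. Alternatives covered scaling, weighting, the rule's threshold, depth, hashtag and cell filters, list floors, and cells with 2 β chains or DP stage UMIs.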

Additional observations from a re-analysis of the deposited data

Results flagged for a closer look

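Cycling RNA also stood in CD4 SP barcodes that the comparisons do not use. Of the barcodes without a single hashtag, 5.12% had 5 or more rule UMIs.

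For 4 genes the interval of the ratio of I173A to WT lay on opposite sides of 1 in cycling and noncycling CD4 SP cells; whether the 2 ratios differ between animals was not tested. Ccnd3 had 0.818 in cycling and 1.23 in noncycling cells, and C2cd5 had 0.526 and 1.17. Hist1h3a had 2.03 and 0.452, and Hist1h3e 1.955 and 0.779. Without TRAV11-TRAJ18 and DP stage cells the cycling ratio of Ccnd3 was 0.930.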

How the results depend on the processing

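With 1 sample per genotype and gate no replicate could be left out. No paired analysis was possible because each genotype is 1 sample in each library. The ratio of the cycling shares ran from 0.884 (cells thinned to 3000 UMIs) to 0.999 (hashtag 10 times every other). Of the main values under alternatives, 287 moved by less than their counting interval and 13 moved by more; of the values for single genes, 416 and 23 did so and 2 turned round. The cause of these was not tested. For I173A over WT in cycling cells, the G2/M median (log2) was -0.18 with every cell weighing the same, -0.14 with 3 or more rule UMIs, -0.30 without cells with 2 or more DP stage UMIs and -0.12 without TRAV11-TRAJ18 and DP stage cells, and the histone median 0.055 with every cell weighing the same, 0.38 without cells with 2 or more DP stage UMIs and 0.28 without TRAV11-TRAJ18 and DP stage cells. The TCR response median was -0.38 without cells with 2 β chains, the Myc median 0.21 without cells with 2 or more DP stage UMIs, and the glycolysis median -0.11 without TRAV11-TRAJ18 and DP stage cells. The ratio of Mki67 turned to 1.21 with every cell weighing the same and that of Lmo4 to 0.819 without TRAV11-TRAJ18 and DP stage cells. For cycling over noncycling cells, the interferon median was -0.22 with scaling by the median gene ratio and -0.20 with every cell weighing the same, and the semimature median -1.10 with scaling by the median gene ratio. The alternatives that leave out TRAV11-TRAJ18 and DP stage cells or the highest cell, and the noncycling cells of like semimature share, were chosen after seeing the data. With 57 and 69 cells, genes under about 50 UMIs have wide intervals.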
